A study of Mus musculus with 12 samples.

Results

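Transcripts of the machinery that makes glycosylphosphatidylinositol (GPI) anchors, and of the synthase that makes dolichol-phosphate mannose (DPM), were followed in mouse oocytes. These came from WT females and from females with a missense mutation or a conditional deletion of Dpagt1. The list held 30 gene symbols, chosen for their place in these pathways, and 29 of them had a row among the 24255 genes of the expression table. RNA-Seq was performed with Smart-seq2, which amplifies full-length cDNA, on 12 libraries of 20 fully grown germinal vesicle oocytes each, from C57BL/6 females of 3 weeks that had been given 5 IU of PMSG 46 h earlier. WT females (replicates 4 to 6) were compared with 3 groups. D166G females (MUT, replicates 1 to 3) carry an ENU-induced missense mutation of Dpagt1 in the whole body. Dpagt1F/F Gdf9CRE/+ females (GcKO, replicates 1 to 3) delete the gene in oocytes from the primordial follicle stage, and Dpagt1F/F Amhr2CRE/+ females (AmcKO, replicates 4 to 6) delete it through an Amhr2-driven Cre, in granulosa cells. Oocytes of several follicles are pooled in a library, no source says that the 3 libraries of a group came from different females, and p-values therefore measure the spread between these libraries. No group of floxed females without Cre was analysed here. Label numbers are 4 to 6 in WT and AmcKO and 1 to 3 in MUT and GcKO. A difference of MUT or GcKO from WT or AmcKO thus cannot be told apart from this split of label numbers.

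A GPI anchor is a glycolipid that holds proteins such as JUNO, the egg receptor for sperm, on the outer face of the plasma membrane. It is built on phosphatidylinositol in the endoplasmic reticulum by adding N-acetylglucosamine, mannoses and ethanolamine phosphates, and a transamidase then swaps it for a signal peptide at the end of the protein. DPM is the mannose donor for this pathway, for the later mannoses of N-glycan precursors and for O- and C-mannosylation. DPAGT1 starts N-glycan precursors on dolichol phosphate, the same lipid from which DPM is made.

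Values are FPKM, fragments scaled for the length of the transcript and between libraries, so levels of different genes are compared per length. Summed over all genes, the median library reached 1225803 in WT, 611154 in MUT, 612604 in GcKO and 967002 in AmcKO oocytes. Median-of-ratios factors of the 12 libraries lay between 1.01 and 1.03, so that the deposited values were already on a common median scale, and the direction of a difference in an abundant transcript depends on whether that scale or the sum is held equal. Depth is unknown, but steps among low values gave the worth of 1 fragment, which relative to MUT replicate 2 was 2.29 to 2.66 for WT, 1.08 to 1.21 in the other MUT libraries, 0.902 to 1.50 for GcKO and 1.21 to 1.50 for AmcKO libraries. A low transcript was thus counted in fewer fragments in WT. Dpagt1 itself was listed at 0 in all WT and AmcKO libraries, at 0.878, 0.408 and 0.985 FPKM in MUT and at 0, 0.366 and 0 FPKM in GcKO replicates 1 to 3, and so did not check the labels. The 10 oocyte markers summed to 11552 to 12955 FPKM in WT, 6257 to 7755 for MUT, 5991 to 8283 for GcKO and 8977 to 9456 for AmcKO libraries. These sums were lower in every library of the 3 groups than in WT. Of the 10 markers, 3 passed as lower in MUT and 2 in GcKO against WT (limma), beside 11.3% and 11.4% of all genes. Among genes averaging at least 10 FPKM, as all 10 markers did, 32.6% and 33.4% passed as lower. Kit and Nobox lay above all WT values in GcKO. Of 15 granulosa and cumulus markers 11 were at 0 in all WT libraries.

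Among the members, the levels spread from 0 to 928 FPKM. Pigyl, a homologue of the Pigy subunit of the first enzyme of the pathway, was the most abundant, at 770, 723 and 769 FPKM in WT replicates 4, 5 and 6. Pigf, the partner of the ethanolamine phosphate transferases Pigo and Pigg, followed at 326, 330 and 368 FPKM, and Dpm2, the regulatory subunit of DPM synthase, at 169, 173 and 160 FPKM. These ranges did not overlap, and Pigp (69.6 to 81.6 FPKM in WT), a small membrane subunit of the first enzyme, lay below all 3. The next members in WT overlapped their neighbours, with Pigc at 27.2 to 35.8, Pigu at 20.8 to 27.8, Pigx at 16.8 to 24.6 and Dpm3 at 12.9 to 47.8 FPKM. Over the 12 libraries, 8 members averaged at least 10 FPKM and 3 at least 100 FPKM, and Pigyl, Pigf and Dpm2 stood at the 98.1, 95.5 and 93.4 percentile of the means of the tested genes.

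Several members were low or listed at 0. Pigt, a subunit of the transamidase, and Pigz, which adds a side mannose, were listed at 0 in all 12 libraries, as were Hk1, a hexokinase, and Mpdu1, a factor for the use of DPM, and a listed 0 is not read here as absence. Pign, Pigo and Pigg, the ethanolamine phosphate transferases themselves, stayed under 1 FPKM everywhere, as did Pigv, which adds the second mannose, and Mppe1 and Pgap3, which trim and remodel the anchor. These 8 members did not pass the filter of 1 FPKM in at least 1 library, and 21 members were tested. Mppe1 was above 0.01 FPKM in 1 library (0.689 FPKM in GcKO replicate 2) and Pgap3 above 0 in 1 (0.334 FPKM in MUT replicate 1). Pigy had no row. Pyurf, the neighbouring locus whose transcript also encodes Pigy, was at 3.96 to 9.68 FPKM. The number of members above 0 was 19 to 20 for WT, 23 to 25 for MUT, 21 to 24 for GcKO and 21 to 22 for AmcKO libraries. Over all genes it was 9359 to 9622 for WT, 11208 to 11467 for MUT, 10733 to 11608 for GcKO and 10399 to 10921 for AmcKO. Both numbers were thus lowest in WT, where the worth of 1 fragment was higher as given above. The part of fragment worth in these numbers was not tested.

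In MUT against WT oocytes, 5 of the 21 tested members passed the threshold of limma at a Benjamini-Hochberg adjusted p under 0.05, in a table in which 20.8% of all genes passed. Piga, Pigh and Pigq were higher (background 9.46% higher), and Pigf and Dpm2 were lower (background 11.3% lower). The median log2 fold change was 0.13 over the members and 0.12 over all genes. In GcKO against WT oocytes, 5 members passed as well (background 20.2%): Gpaa1 was higher (background 8.71%), and Pigc, Pigyl, Pigf and Dpm2 were lower (background 11.4%). The median was 0.12 over the members and 0.12 over all genes. The share of called members in MUT, 23.8%, was near the background, and in GcKO the count holds Gpaa1, which entered the test through 1 GcKO library alone and is left aside when the count is read against the background (4 of the other 20). The 3 values lay outside the range of the WT values for 10 of the 21 members in MUT (37.1% of all genes). In GcKO there were 7 such members (34.2%) and in AmcKO 2 (17.8%). Gpaa1 is among the 7 in GcKO and is left aside when they are read against this share. When each library was scaled to the same sum, 10 members passed as higher and 0 as lower in MUT, and 6 as higher and 0 as lower in GcKO, while all genes moved from 1063 higher and 1269 lower to 4643 and 251 in MUT, and from 978 and 1286 to 4767 and 240 in GcKO. Gpaa1 is among the 6 in GcKO and is left aside there as well. The median of all genes with equal sums was 0.71 in MUT and 0.74 in GcKO. After quantile normalization only Pigq (1.36, adjusted p = 0.0445) was still called of the 5 in MUT, and Pigp was called as higher (0.84, adjusted p = 0.0114). In GcKO 0 members were then called (limma). With only GcKO and WT in the fit, 1 member was called lower and 1 higher, beside 838 and 410 of 11233 genes. The GcKO calls of Pigc, Pigyl, Pigf and Dpm2 thus did not all hold there.

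In AmcKO against WT oocytes, 0 members passed in limma (background 0.214%). Of the 21 tested, 2, Pigf and Pigq, had an unadjusted p under 0.05, beside 1754 of the 11233 genes tested. Between GcKO and MUT oocytes 0 members passed (background 0.205%), and 2, Piga and Pigw, had an unadjusted p under 0.05, beside 741 of all genes tested. Between GcKO and AmcKO, 2 members were lower, Pigyl and Dpm2 (5.46% of all genes called, 4.79% lower), and between MUT and AmcKO 1 member was lower, Dpm2 (6.49% called, 5.07% lower). MUT and GcKO share the WT libraries as their control, so their lists are given side by side without a test of their overlap.

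**Figure D1:**
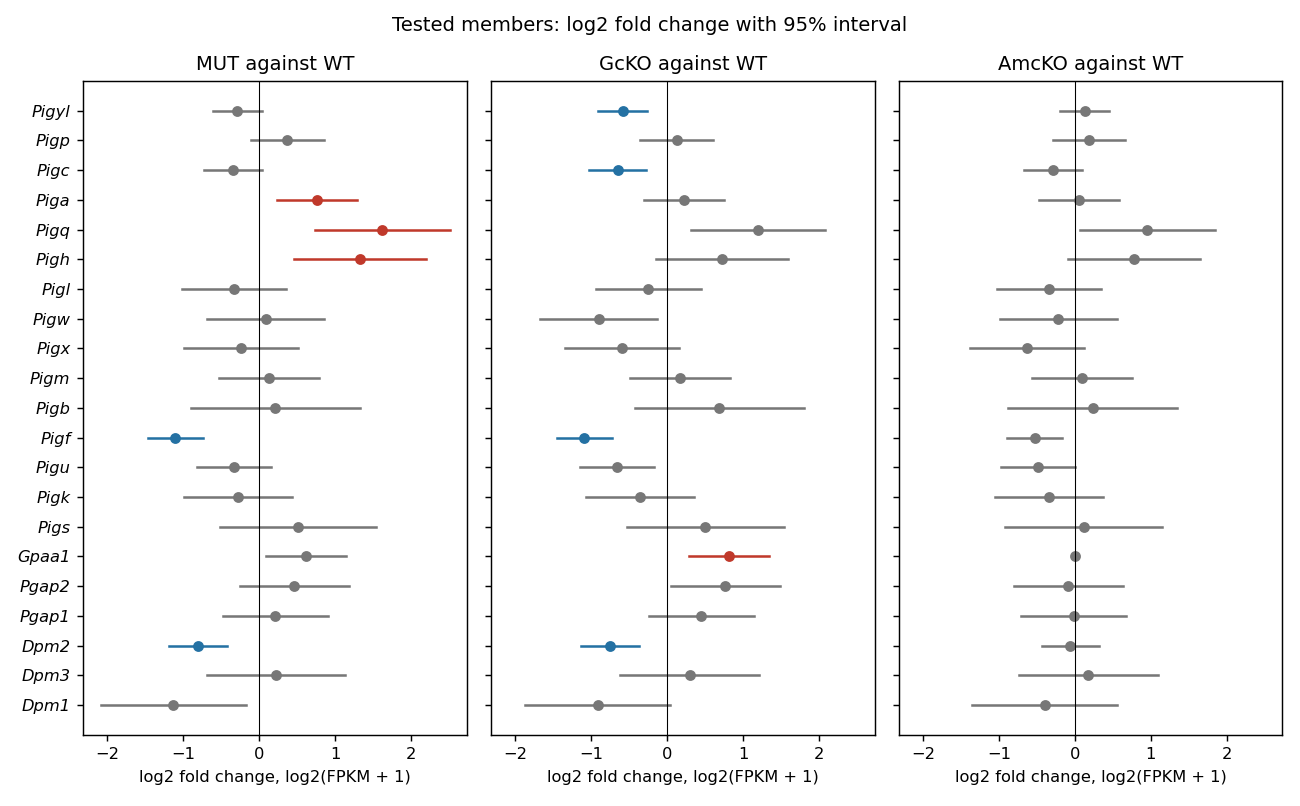
Log2 fold change on the log2(FPKM + 1) scale of the 21 tested members against WT, with 95% intervals from limma, 1 panel per group; red and blue mark adjusted p under 0.05, higher and lower, and grey the rest. Pigf and Dpm2 lie below 0 in the MUT and GcKO panels, and no member is coloured in the AmcKO panel; Gpaa1 was at 0 in all WT libraries, so its position depends on the pseudocount.

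Pigf, needed for ethanolamine phosphate on the mannoses through which the anchor is joined to proteins, was lower in both MUT and GcKO. It was at 326, 330 and 368 FPKM in WT, at 186, 149 and 142 FPKM in MUT, at 155, 162 and 162 FPKM in GcKO and at 212, 305 and 204 FPKM in AmcKO oocytes. All 6 values of MUT and GcKO lay below all WT values, and so did the 3 AmcKO values. The log2 fold change was -1.11 ± 0.17 (SE) in MUT with an adjusted p of 0.000575, and -1.09 ± 0.17 in GcKO with an adjusted p of 0.000627 (limma, n = 3 per group). Both calls held without any single library, and both were lost after quantile normalization, at -0.44 in MUT (adjusted p = 0.0598) and -0.33 in GcKO (adjusted p = 0.158). Pigf shares 31.6% of its exon bases with Rhoq on the opposite strand, and Rhoq was at 0 to 2.503 FPKM over all libraries. In AmcKO the log2 fold change was -0.53, with a 95% interval from -0.89 to -0.16 and an adjusted p of 0.177, and without AmcKO replicate 5, the highest of its group, it was -0.71 with an adjusted p of 0.0454. The differences of -0.57 between GcKO and AmcKO and of -0.58 between MUT and AmcKO did not pass, with adjusted p of 0.0704 and 0.0568, although the latter passed without AmcKO replicate 6 (adjusted p = 0.0456).

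As a share of its library, Pigf was not called in any group. It held 0.0266, 0.0283 and 0.0300% of the library sum in WT, 0.0304, 0.0244 and 0.0240% in MUT, 0.0321, 0.0264 and 0.0237% in GcKO and 0.0219, 0.0276 and 0.0231% in AmcKO. These ranges overlapped, and the log2 fold change with equal sums was -0.11 in MUT (adjusted p = 0.549) and -0.057 in GcKO (adjusted p = 0.783, limma). Relative to the median of all genes, the difference was -1.23 as deposited and -0.47 after quantile normalization in MUT, and -1.21 and -0.35 in GcKO.

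Dpm2 was lower in MUT and GcKO, while its AmcKO values overlapped those of WT. DPM2 keeps the DPM1 catalytic subunit in the membrane complex and also associates with the first enzyme of the GPI pathway. Dpm2 was at 169, 173 and 160 FPKM in WT, at 89.2, 92.5 and 102 FPKM in MUT, at 88.8, 83.9 and 130 FPKM in GcKO and at 139, 184 and 161 FPKM in AmcKO. The MUT and GcKO values lay below every WT and AmcKO value, whereas WT and AmcKO overlapped. MUT and GcKO also share their label numbers, as do WT and AmcKO, so genotype and label set cannot be told apart in this pattern. The log2 fold change was -0.81 ± 0.18 (SE) in MUT (adjusted p = 0.00546, limma) and -0.75 ± 0.18 in GcKO (adjusted p = 0.00895), and both calls held without any single library. With equal sums these differences turned to 0.18 and 0.28 (adjusted p of 0.371 and 0.15), and after quantile normalization both calls were lost, at -0.27 in MUT (adjusted p = 0.244) and -0.17 in GcKO (adjusted p = 0.479). Relative to the median of all genes they were -0.93 and -0.87 as deposited and -0.30 and -0.20 after quantile normalization. In AmcKO the log2 fold change was -0.058, with a 95% interval from -0.44 to 0.32. With only GcKO and WT in the fit, 1 member was called lower, so the GcKO calls of Pigf and Dpm2 did not both hold.

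The difference of Dpm2 between groups was tested directly. It was -0.75 between MUT and AmcKO (adjusted p = 0.0207) and -0.69 between GcKO and AmcKO (adjusted p = 0.0381, limma). The first call was kept without AmcKO replicate 4 or 6 and lost without any other single library, with adjusted p up to 0.0829. The second was kept without GcKO replicate 3, the highest of its group, and lost without any other single library, with adjusted p up to 0.14. With equal sums the 2 differences were -0.059 and 0.047.

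The other subunits of DPM synthase did not pass. Dpm1, the catalytic subunit, was at 3.85, 1.74 and 5.23 FPKM in WT and at 0.355, 1.65 and 1.19 FPKM in MUT, below all WT values, with a log2 fold change of -1.13 and an adjusted p of 0.0872 (limma). These values rested on 5, 2 and 7 fragments in WT and 1, 5 and 3 in MUT, and the difference passed only without WT replicate 5, the lowest of its group (adjusted p = 0.0445). Dpm3, which tethers DPM1, ranged from 12.9 to 48.1 FPKM over all libraries, and all groups overlapped.

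The promoters of Pigf and Dpm2, the members that were lower in both mutants, are shown as the 250 bases before the RefSeq transcription start in GRCm38.p6, 5′ to 3′ on the strand of the gene. Pigf lies on the reverse strand of chromosome 17 (chr17:87025402-87025651 for the stretch shown, the gene running from 86997256 to 87025406 in GENCODE M21), and Dpm2 on the forward strand of chromosome 2 (chr2:32570608-32570857, the gene running from 32570858 to 32573579). Capitals mark matches on either strand to the CCAAT box (CCAAT), the E-box palindrome (CACGTG), the GC box bound by Sp1 (GGGCGG), the core of a cAMP response element (TGACGT) and the core bound by ETS factors (CCGGAAG), which did not overlap each other here.
Pigf: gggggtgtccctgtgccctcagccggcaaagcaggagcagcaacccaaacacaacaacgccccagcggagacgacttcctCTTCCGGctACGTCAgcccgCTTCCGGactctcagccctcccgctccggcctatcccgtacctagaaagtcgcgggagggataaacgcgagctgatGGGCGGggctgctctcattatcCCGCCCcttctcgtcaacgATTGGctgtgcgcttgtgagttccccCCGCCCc
Dpm2: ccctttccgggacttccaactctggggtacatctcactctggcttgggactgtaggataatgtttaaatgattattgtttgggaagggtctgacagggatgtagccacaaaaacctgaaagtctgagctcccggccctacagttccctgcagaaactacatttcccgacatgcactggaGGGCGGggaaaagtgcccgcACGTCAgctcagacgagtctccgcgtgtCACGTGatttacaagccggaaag
Pigf held 3 GC boxes, 2 ETS cores, 1 CCAAT and 1 TGACGT, and Dpm2 held 1 GC box, 1 TGACGT and 1 E-box. Both thus shared the GC box and TGACGT, which occurred before 35.4% and 7.29% of 27025 genes and before 13 and 5 of the 23 members with a promoter in the table. The ETS core was found before 7 of the 23 members and 7.83% of genes, CCAAT before 8 and 37.5%, and the E-box before 3 and 6.86%. These matches describe letters in this window.

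**Figure D2:**
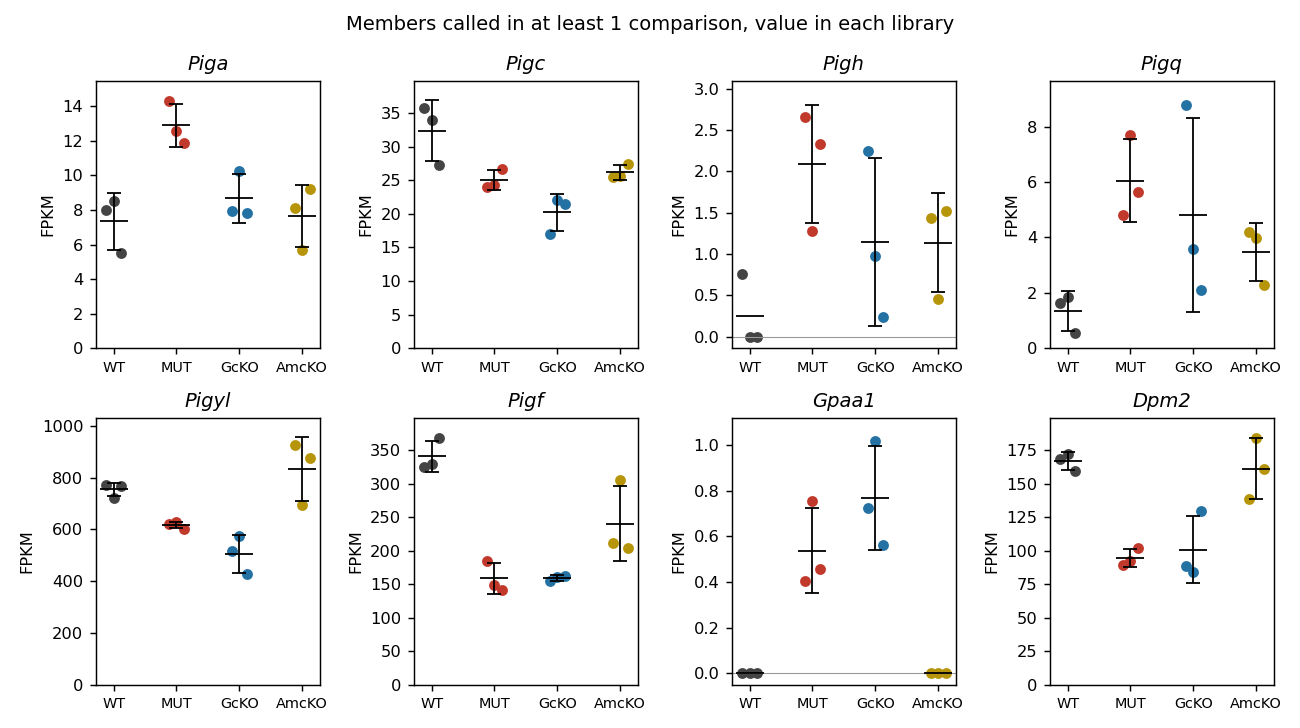
FPKM in each library of the 8 members called in at least 1 comparison; points are libraries, horizontal bars are group means and whiskers are SD (n = 3), left out for groups with a value of 0. Pigf and Dpm2 are lower in MUT and GcKO than in WT, and Pigh, Pigq and Gpaa1 sit near 0 in WT.

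The first step, transfer of N-acetylglucosamine to phosphatidylinositol, is made by a complex of Piga, Pigc, Pigh, Pigp, Pigq and Pigy, and its members went in different directions. Piga, the catalytic subunit, was at 7.999, 8.52 and 5.48 FPKM in WT, at 14.3, 12.6 and 11.9 FPKM in MUT, at 7.92, 10.3 and 7.81 FPKM in GcKO and at 8.10, 5.66 and 9.21 FPKM in AmcKO. Each MUT value lay above each value of the other groups. The log2 fold change of MUT against WT was 0.76 ± 0.24 (SE) with an adjusted p of 0.0416 (limma), and the call was lost without any single library except WT replicate 5, with adjusted p up to 0.134. The difference between MUT and AmcKO, 0.70, had an adjusted p of 0.111, and that between GcKO and MUT, -0.53, an adjusted p of 0.741.

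Pigq, which stabilises the complex, was at 1.65, 1.86 and 0.532 FPKM in WT, 4.80, 7.70 and 5.65 FPKM in MUT, 8.78, 3.58 and 2.10 FPKM in GcKO and 4.20, 3.96 and 2.26 FPKM in AmcKO. All values of the 3 other groups lay above all WT values. The log2 fold change was 1.62 ± 0.41 in MUT (adjusted p = 0.0136, limma), 1.19 in GcKO (adjusted p = 0.0559) and 0.95 in AmcKO (adjusted p = 0.295). The MUT call was lost without MUT replicate 2 or WT replicate 6, with an adjusted p up to 0.0596. The WT values rested on 3, 3 and 1 fragments, against 19, 33 and 20 in MUT. Of the exon bases of Pigq, 21.3% are shared with Nhlrc4 or Gm16278 in GENCODE M21, and Nhlrc4 was listed at 0 in all libraries.

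Pigh, a further subunit, was at 0.751, 0 and 0 FPKM in WT, at 2.66, 1.28 and 2.32 FPKM in MUT, at 2.24, 0.969 and 0.233 FPKM in GcKO and at 1.44, 0.453 and 1.52 FPKM in AmcKO. The MUT values lay above the WT values, with a log2 fold change of 1.33 ± 0.40 and an adjusted p of 0.0323 (limma), which was lost without MUT replicate 1 or 3 or WT replicate 5 or 6 (adjusted p up to 0.104). Of its exon bases, 33.1% are shared with other genes, Plekhh1 on the opposite strand among them, and no source states that strand was used in counting. Plekhh1 did not exceed 0.491 FPKM in any library.

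Pigc and Pigyl went the other way. Pigc was at 35.8, 34.0 and 27.2 FPKM in WT, at 24.0, 24.3 and 26.7 FPKM in MUT, at 17.0, 22.1 and 21.5 FPKM in GcKO and at 25.5, 25.6 and 27.4 FPKM in AmcKO. MUT and GcKO values lay below WT, and the log2 fold change was -0.35 in MUT (adjusted p = 0.179) and -0.65 ± 0.18 in GcKO (adjusted p = 0.0183, limma). The GcKO call was lost without GcKO replicate 1, WT replicate 4 or WT replicate 5, with adjusted p up to 0.0732, and the direction turned with equal sums, to 0.35. Pigp, the most abundant subunit of the complex itself, was at 69.6, 81.6 and 76.2 FPKM in WT and at 92.1, 92.4 and 110 FPKM in MUT, and was not called.

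Pigyl was at 770, 723 and 769 FPKM in WT, at 623, 627 and 602 FPKM in MUT, at 517, 574 and 427 FPKM in GcKO and at 928, 694 and 877 FPKM in AmcKO. The MUT and GcKO values lay below those of WT and AmcKO, which overlapped, and this split too is that of the label numbers. The log2 fold change was -0.29 in MUT (adjusted p = 0.194) and -0.59 ± 0.15 in GcKO (adjusted p = 0.0137, limma), the latter kept without any single library but turned to 0.45 with equal sums. GcKO lay below AmcKO by -0.72 on the log2 scale (adjusted p = 0.0131), which was lost without AmcKO replicate 4 (adjusted p = 0.0656) and was 0.023 with equal sums. Pigyl lies on the forward strand of chromosome 9 (22156846 to 22158358), the chromosome of Dpagt1, shares no exon base with another gene and has no annotated transcript of another gene that matches it over 150 bases at 90% identity or more.

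Because Pigp is the most abundant member after Pigyl, Pigf and Dpm2, ratios to it describe the module within a library without any scaling. The ratio of Pigf to Pigp was 4.69, 4.05 and 4.83 in WT, 2.01, 1.62 and 1.28 in MUT, 2.64, 1.60 and 1.71 in GcKO and 1.96, 3.43 and 3.11 in AmcKO. The ratio of Dpm2 to Pigp was 2.42, 2.11 and 2.09 in WT, 0.968, 1.00 and 0.927 in MUT, 1.51, 0.834 and 1.37 in GcKO and 1.28, 2.07 and 2.45 in AmcKO. In MUT and GcKO both ratios lay below all WT values, and so did the ratio of Pigf to Pigp in AmcKO. Pigp itself lay above all WT values in MUT, which lowers the MUT ratios, and shares 28.2% of its exon bases with Gm15310 and Ttc3. The ratio of Dpm2 to Dpm3 was 3.53, 7.48 and 12.4 in WT, 1.85, 5.80 and 3.43 in MUT, 2.43, 2.57 and 5.70 in GcKO and 5.04, 8.24 and 4.66 in AmcKO, so that all groups overlapped WT. The ratio of Pigyl to Pigp was 8.87 to 11.1 for WT, 5.45 to 6.79 for MUT, 4.49 to 8.82 for GcKO and 7.79 to 13.3 for AmcKO. All members together made up 0.122 to 0.124% of the library sum in WT, 0.178 to 0.188% for MUT, 0.136 to 0.196% for GcKO and 0.125 to 0.163% for AmcKO. All libraries of the 3 groups lay above WT. With equal sums the median log2 fold change of all genes was also above 0, at 0.71 in MUT, 0.74 in GcKO and 0.21 in AmcKO. A higher share was thus not particular to the members. Exact permutation tests of 3 against 3 values cannot go below 0.1 and are not given for these ratios, whose denominator was chosen after the levels were seen.

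**Figure D3:**
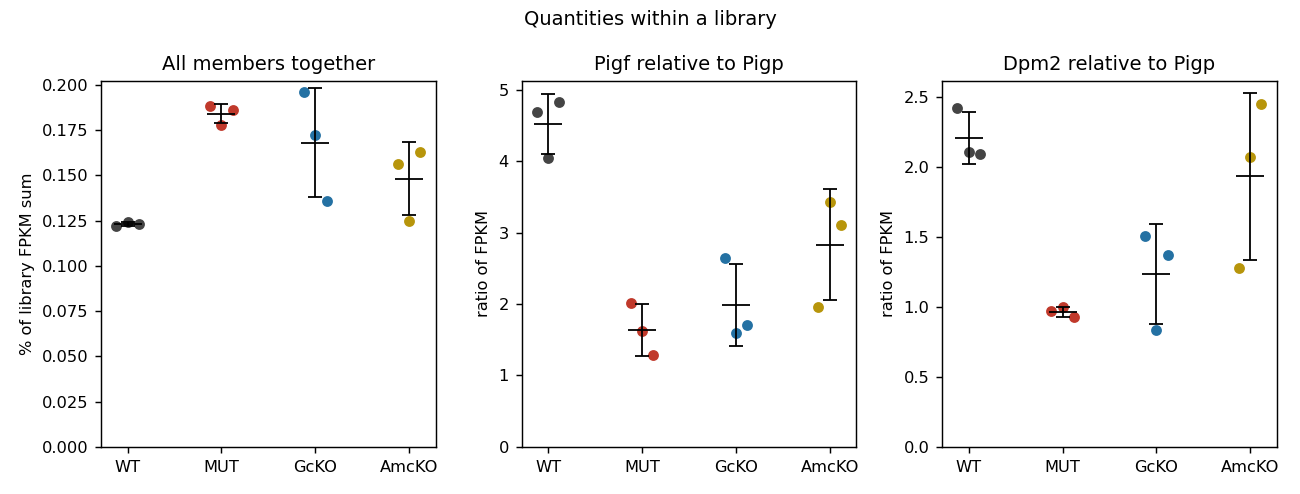
Quantities formed within each library, namely the members' summed FPKM in percent of the library sum and the ratios of Pigf and Dpm2 to Pigp; points are libraries, bars are means and whiskers SD (n = 3). The members' share is lowest in WT (0.122 to 0.124%), while both ratios are lower in the MUT and GcKO than in the WT libraries. With equal sums the median log2 fold change of all genes against WT was also above 0, at 0.71 in MUT and 0.74 in GcKO.

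Among the later steps, no member other than Pigf and Gpaa1 was called. Gpaa1, a transamidase subunit, was listed at 0 in all WT and AmcKO libraries, at 0.406, 0.753 and 0.455 FPKM in MUT and at 0.723, 1.02 and 0.564 FPKM in GcKO. These values rested on 1, 2 and 1 fragments in MUT and 2, 3 and 1 in GcKO, and the gene passed the filter through GcKO replicate 2 alone. The adjusted p was 0.0319 in GcKO and 0.0947 in MUT against WT (limma), and the former was lost without GcKO replicate 1 or any WT library (adjusted p up to 0.0772). A single fragment in WT would be worth more than in the other groups, as given above, and its part in this call was not tested.

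Pigu, another transamidase subunit, was at 26.4, 20.8 and 27.8 FPKM in WT and at 12.7, 14.6 and 19.2 FPKM in GcKO, below all WT values, with a log2 fold change of -0.66 and an adjusted p of 0.0533 (limma). Pigk, the protease of the complex, ranged from 4.03 to 13.6 FPKM and Pigs from 0.449 to 4.72 FPKM over all libraries, and the groups overlapped. Pigw, which acylates the inositol, was listed at 0 in all 3 GcKO libraries, at 1.57, 0 and 1.53 FPKM in WT, at 1.09, 0.672 and 1.22 FPKM in MUT and at 0.503, 0.950 and 0.407 FPKM in AmcKO. It rested on at most 3 fragments in any library, and GcKO against WT gave an adjusted p of 0.0932. Pigl, the de-N-acetylase, ranged from 4.32 to 10.9 FPKM, and the mannosyltransferase genes Pigm and Pigx from 1.37 to 3.43 and from 6.26 to 24.6 FPKM, with overlapping groups. Pigb, which adds the third mannose, reached 2.07 FPKM, Pgap1 1.37 FPKM and Pgap2 9.03 FPKM, and none was called.

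Abundant and scarce members were read against genes of like level. Of 8 members averaging at least 10 FPKM, 0 were called higher and 2 lower in MUT, against 11.1% higher and 32.6% lower of 3421 genes of that class, and 0 and 4 in GcKO, against 9.62% and 33.4%. Of 13 tested members under 10 FPKM, 3 were higher and 0 lower in MUT, against 8.76% and 1.97% of 7812 genes, and 1 and 0 in GcKO, against 8.31% and 1.82%. The 1 in GcKO is Gpaa1, which entered the test through 1 GcKO library alone and is left aside when this count is read against the class. The median log2 fold change of the abundant members was -0.31 in MUT and -0.62 in GcKO, beside -0.30 and -0.36 for all genes of the class, and that of the scarce members was 0.21 and 0.45, beside 0.26 and 0.26. The medians of the scarce members include Gpaa1.

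**Figure D4:**
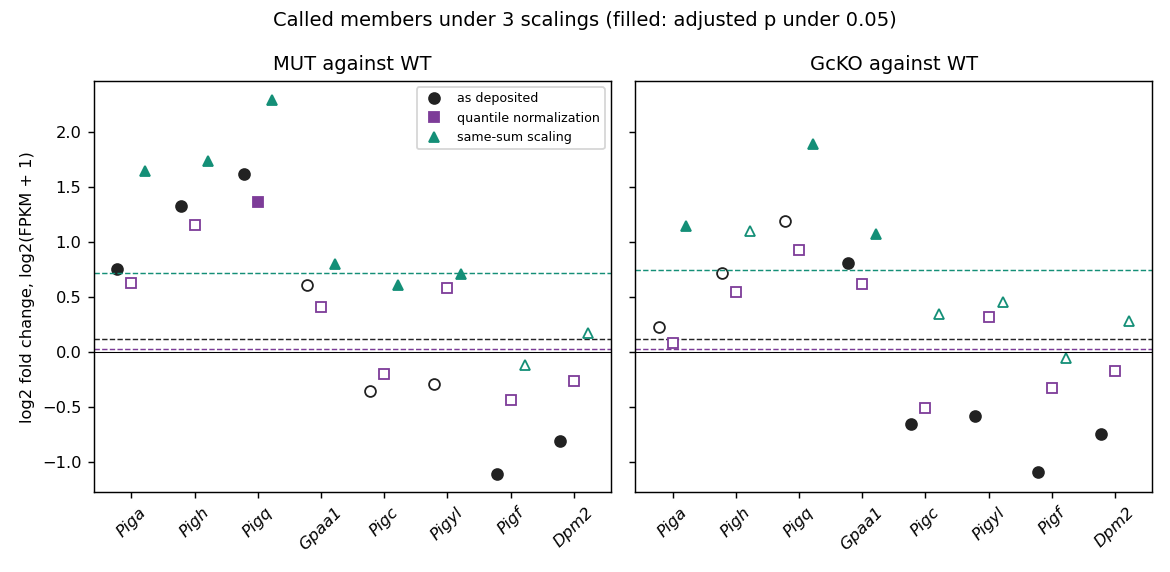
Log2 fold change against WT of the 8 called members with the deposited values, after quantile normalization and with equal library sums; filled symbols have an adjusted p under 0.05, and dashed lines give the median of all genes under each scaling. In MUT and GcKO, Piga, Pigh, Pigq and Gpaa1 stay above 0 under all 3, whereas the signs of Pigc, Pigyl and Dpm2 depend on the scaling.

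Genes around the pathway were listed from its known partners. Of all genes tested, 9.46% were higher in MUT and 8.71% in GcKO, against which the counts below stand. Of 10 tested genes of dolichol and GDP-mannose supply, 1 was higher in MUT, Dolk, the kinase that makes dolichol phosphate. Dolk was listed at 0 in all WT libraries and was at 0.777, 1.80 and 1.31 FPKM in MUT (adjusted p = 0.0221, limma). In GcKO 0 of the 10 passed, and 3 had an unadjusted p under 0.05, beside 3791 of the 11233 genes tested. Of 11 other users of DPM, Tmtc1, an O-mannosyltransferase of cadherins, was higher in both MUT and GcKO, by 0.99 and 1.03 on the log2 scale (adjusted p of 0.0238 and 0.0193). Alg9, an N-glycan mannosyltransferase, was at 6.30 ± 2.23 FPKM in MUT, 6.28 ± 2.63 FPKM in WT, 2.79 ± 1.27 FPKM in GcKO and 1.10 ± 0.294 FPKM in AmcKO (SD, n = 3). It differed by 1.75 between MUT and AmcKO (adjusted p = 0.01, limma), by 0.011 between MUT and WT and by -1.74 between AmcKO and WT (adjusted p = 0.0649). Its GcKO values also lay below all WT values, by -0.94 (adjusted p = 0.0804, limma), which was not called. Of 3 tested accessory factors, Tmem8, a phospholipase that acts on GPI, was higher in MUT by 1.28 (adjusted p = 0.0167) and in GcKO by 1.18 (adjusted p = 0.024), and Clptm1l, a GPI scramblase, was higher in MUT by 1.52 (adjusted p = 0.0269). Most of these calls depended on single libraries. Of 6 fits that each left out 1 library, the call was lost in 3 for Dolk, 4 for Tmtc1 in MUT and 2 in GcKO, 3 for Tmem8 in MUT and 4 in GcKO, 5 for Clptm1l and 1 for Alg9 (without MUT replicate 2).

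GPI-anchored proteins, the products of the pathway, were measured as transcripts and not on the cell surface. Of 23 tested, 2 were higher and 4 lower in MUT (26.1% called, beside 20.8% of all genes), and 2 were higher and 5 lower in GcKO (30.4%, beside 20.2%). Izumo1r, which encodes JUNO, was at 278, 318 and 332 FPKM in WT, at 163, 181 and 137 FPKM in MUT, at 139, 213 and 220 FPKM in GcKO and at 269, 235 and 223 FPKM in AmcKO. MUT and GcKO values lay below all WT values, with a log2 fold change of -0.95 (adjusted p = 0.00287) and -0.72 (adjusted p = 0.0142, limma; 0.0509 without GcKO replicate 1), which turned to 0.043 and 0.31 with equal sums. Cd55, a complement regulator, was at 114, 121 and 124 FPKM in WT, at 57.6, 63.9 and 62.4 FPKM in MUT, at 76.3, 66.6 and 86.6 FPKM in GcKO and at 101, 114 and 92.2 FPKM in AmcKO. It was lower in MUT by -0.96 (adjusted p = 0.000677) and in GcKO by -0.65 (adjusted p = 0.0078), which turned to 0.030 and 0.38 with equal sums. Cd59a, also a complement regulator, was at 0, 4.78 and 3.07 FPKM in WT and between 1.09 and 4.07 FPKM in the other groups, and was not called. Ly6a and Ly6e were lower in MUT by -1.82 and -1.41 and in GcKO by -1.71 and -1.75, and Hyal2 was higher by 1.47 and 1.84 (adjusted p of 0.00425 to 0.0252, limma). Of 6 fits that each left out 1 library, Ly6a was lost in 2 in MUT and 3 in GcKO, Ly6e in 2 in MUT and 0 in GcKO, and Hyal2 in 4 in MUT and 0 in GcKO.

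Efna1, an ephrin, separated GcKO from the other mutants. It was at 25.2, 24.0 and 23.1 FPKM in WT, at 23.2, 25.1 and 19.9 FPKM in MUT, at 5.99, 7.15 and 3.41 FPKM in GcKO and at 14.5, 11.3 and 22.8 FPKM in AmcKO. The GcKO values lay below all others, by -1.99 against WT (adjusted p = 0.00028), -1.91 against MUT (adjusted p = 0.011) and -1.39 against AmcKO (adjusted p = 0.00924, limma). The difference from MUT was lost without MUT replicate 1 or 2 (adjusted p of 0.0531 and 0.0655), and that from AmcKO was -0.73 with equal sums (adjusted p = 0.116).

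Some markers of other cells were higher than in WT. Of the 15 granulosa and cumulus markers, 7 were tested and 3, Inha, Hsd17b1 and Gja1, were higher in MUT than in WT and AmcKO (limma). In GcKO against WT 0 were called and 1 had an unadjusted p under 0.05, beside 3791 of the 11233 genes tested. Hsd17b1 reached 1 FPKM in MUT libraries alone. Inha reached it in MUT and in GcKO replicate 1, and Gja1 in MUT and in GcKO replicate 2. All 3 thus entered the test through groups in which they were high, and are left aside when the count is read against all genes. Of all genes, 9.46% were higher in MUT than in WT, and 159 of 11233 were higher in MUT than in AmcKO. Cyp19a1, the most abundant marker of this list, went the other way. It was at 17.1, 20.1 and 15.1 FPKM in WT and at 8.88, 9.49 and 13.4 FPKM in MUT, below all WT values, and was not called. It held most of the list's sum in WT. In GcKO, Inha was at 1.08, 0.505 and 0.842 FPKM and Gja1 at 0.453, 1.69 and 0.353 FPKM, while both were at 0 in all WT libraries. The GcKO values of 3 of the 7 markers lay above all WT values, and 34.2% of all genes lay outside the WT range in either direction. Their list summed to 17.6 to 23.1 FPKM in WT, 17.8 to 31.3 for MUT, 15.8 to 29.1 for GcKO and 11.6 to 22.7 for AmcKO, and Amh, Amhr2, Foxl2 and Lhcgr were at 0 in all 12 libraries. Blood markers summed to at most 1.12 FPKM and theca markers to at most 0.813 FPKM. The part of other cells in the higher Piga, Pigh and Pigq of MUT was not tested.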

How the data were processed

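The authors prepared 12 Smart-seq2 libraries, aligned paired reads to mm10 with TopHat2 2.0.13 and estimated expression with Cufflinks 2.2.1. Cuffnorm is named in the submitters' processing notes without its role. Series text and sample labels name different kits for the library step after amplification, so no kit is given. The authors deposited 1 FPKM value per gene and library, normalized for transcript length and between libraries. Columns with their own group comparisons (fold changes on a log2 scale with p and q) were not used. Groups and replicate numbers came from the sample labels, and every library column was mapped.

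The 11233 genes that reached 1 FPKM in any library were tested on log2(FPKM + 1) in limma 3.58.1 (R 4.3.3), using an abundance trend, all 12 libraries in 1 fit (8 residual degrees of freedom), 6 contrasts and Benjamini-Hochberg adjustment over all genes tested. A gene was called at an adjusted p under 0.05 with no fold minimum. Fold changes on this scale understate changes of low genes. Genes at 0 in all libraries of a group are given without a fold. The code was tested on simulated data.

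The members and lists were chosen with earlier results of these data known. Every-library values are given for members called in at least 1 contrast, Pigf, Dpm2, the 3 highest members, Izumo1r, Cd55 and Cd59a, and up to 4 called genes per other list and contrast were named. Values of Dpm1, Pigp, Pigu, Pigw, Efna1, Dolk, Mppe1 and Pgap3 were given in addition, chosen after they were seen. Of the other called genes named by this rule, Cntn1 was higher in MUT and GcKO.

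Fragments behind low values were recovered from the smallest step of each library, within 0.05 of a whole number. Positions and exon overlaps were taken from GENCODE M21 and promoters from RefSeq, both on GRCm38, the same assembly as mm10, and transcripts were compared with BLAST 2.17.0. FPKM carries no counts, so no intervals of depth are given. Other settings were a pseudocount of 0.1, no filter, a mean FPKM of at least 5, equal sums, median-of-ratios scaling, quantile normalization, no trend, only the 2 groups compared, an adjusted p under 0.01, a 2-fold minimum, the label number as a block, and each library left out in turn.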

Additional observations from a re-analysis of the deposited data

Results flagged for a closer look

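Several transcripts differed between 2 groups by a test of the difference itself (limma, adjusted p under 0.05). Dpm2 was lower in MUT than in AmcKO by -0.75 and in GcKO than in AmcKO by -0.69 on the log2 scale, and Pigyl was lower in GcKO than in AmcKO by -0.72. With equal library sums these 3 differences were -0.059, 0.047 and 0.023, and none passed.

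Outside the members, Alg9 was higher in MUT than in AmcKO by 1.75, Tmem8 was higher by 1.32 and Cd55 was lower by -0.73. Of 6 fits that each left out 1 library, the Tmem8 call was lost in 5 and the Alg9 and Cd55 calls in 1 each. Alg9 was at like levels in MUT and WT (6.30 and 6.28 FPKM), and its mean was lower in AmcKO (1.10 FPKM) and GcKO (2.79 FPKM). Neither difference from WT was called (adjusted p of 0.06495 and 0.08039, limma). Efna1 was lower in GcKO than in MUT by -1.91 and than in AmcKO by -1.39. MUT and AmcKO differ in allele, in the cells that carry the lesion and in label numbers, which cannot be told apart here, and groups of 3 libraries were not searched for single libraries that stand apart.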

How the results depend on the processing

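The count of called members was 5 in MUT and 5 in GcKO against WT, 2 in GcKO against AmcKO and 1 in MUT against AmcKO. All genes called were 2332, 2264, 613 and 729 of 11233 in this order. Where a GcKO count holds Gpaa1, that gene is left aside when the count is read against all genes. With equal library sums the count of members was 10 in MUT against WT, 4 in GcKO against AmcKO and 6 in MUT against AmcKO, all higher. Genes called higher were then 4643, 2463 and 2393 of 11233 in this order. After quantile normalization the count of members was 2 in MUT and 0 in GcKO against WT, and 0 in both comparisons with AmcKO. All genes called were then 1473 and 1356 against WT, and 250 in GcKO and 526 in MUT against AmcKO. With a mean FPKM of at least 5, 3 members were called in MUT against WT and 2 in MUT against AmcKO, beside 2122 and 973 of 4759 genes. With a pseudocount of 0.1, no filter or only the 2 groups compared, 2 members were called in MUT against AmcKO. All genes called were then 707, 633 and 577 in this order. Only the 2 groups compared gave 2 members in GcKO against WT and 0 in GcKO against AmcKO, beside 1248 and 0 of 11233 genes. No variance trend gave 0 members in both comparisons with AmcKO, beside 199 genes in GcKO and 386 in MUT. A fold change over 2 gave 3 members in MUT and 1 in GcKO against WT, beside 1478 and 1372 genes. An adjusted p under 0.01 gave 2 and 2, beside 1151 and 1147 genes. Both gave 0 members in the comparisons with AmcKO. All genes called there were 264 in GcKO and 390 in MUT with the fold minimum, and 214 and 266 with the stricter threshold. Leaving out single libraries, the count of members ran from 2 to 5 for MUT, 3 to 7 for GcKO and 0 to 1 for AmcKO against WT. It ran from 0 to 2 for GcKO and for MUT against AmcKO, and stayed at 0 in GcKO against MUT. All genes called then ran from 1493 to 1998, 1353 to 2304 and 15 to 135 against WT. They ran from 313 to 752 for GcKO and 354 to 715 for MUT against AmcKO, and from 9 to 24 in GcKO against MUT. The cause of these changes in the counts was not tested. Median-of-ratios scaling left every count within 1.5 times.

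Directions turned with equal sums for Dpm2 (0.24 in AmcKO, 0.28 in GcKO and 0.18 in MUT against WT, 0.047 in GcKO against AmcKO), Pigc (0.35 in GcKO and 0.61 in MUT against WT, 0.35 in GcKO against AmcKO), Pigf (0.17 in GcKO and 0.12 in MUT against AmcKO), Pigu (0.32 in GcKO against WT), Pigyl (0.45 in GcKO and 0.71 in MUT against WT, 0.023 in GcKO and 0.28 in MUT against AmcKO), Izumo1r (0.31 and 0.043) and Cd55 (0.38 and 0.030, both in GcKO and MUT against WT). They turned after quantile normalization for Pigyl (0.32 in GcKO and 0.58 in MUT against WT, 0.18 in MUT against AmcKO), Izumo1r (0.049 in GcKO against WT) and Dpm2 (0.15 in AmcKO against WT). With a library left out, small differences that were not called changed sign, Dpm2 running from -0.16 to 0.046 in AmcKO against WT and from -0.13 to 0.18 in GcKO against MUT, and Pigf from -0.062 to 0.13 in GcKO against MUT. Label numbers are shared by WT and AmcKO and by MUT and GcKO, and deviations of same-numbered libraries correlated between -0.0413 and 0.0405. Over all genes no pairing by number was thus seen, which does not settle it for a part of the genes. Differences between these pairs of groups are not reached by the check. A fit with the replicate block called 0 members in AmcKO against WT and in GcKO against MUT, and 9 against 24 and 9 against 23 genes in all. Low members are limited by fragments, of which WT libraries held at most 3 for Pigq.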
